A study of Mus musculus with 19 samples.

Results

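Translation initiation factors are the proteins that bring the small ribosomal subunit, the initiator transfer RNA and the messenger RNA together and place the ribosome on the start codon. The genes described here are the 39 mouse genes whose symbol begins with Eif and a digit, other than the Eif4ebp genes, and that have at least 1 open reading frame (ORF) in the deposited ORF lists. Those lists name 7384 genes in all. The 39 genes make up eIF1 and eIF1A (3 genes), eIF2 (2), the eIF2 kinases (3), Eif2a (1), eIF2B (5), eIF3 (11), eIF4A (2), eIF4B and eIF4H (2), eIF4E (2), eIF4G (3), eIF5 (3), eIF6 (1) and the processed pseudogene Eif5al3-ps. Other initiation factor genes, among them Eif1, Eif4a1, Eif4e, Eif2s3x and Eif3m, have no ORF in the lists and were not analysed here.

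All samples were organoids from C57BL/6 mice, either normal alveolar type 2 (AT2) organoids, from the surfactant-secreting cells of the lung alveolus, or lung adenocarcinoma (LUAD) organoids. Both kinds grew in a custom lung organoid medium, were plated for 48 h on plates washed with matrigel and received 100 µM cycloheximide for 5 min before harvest. Ribosome footprints by the RiboLace pull-down were counted in 3 AT2 and 4 LUAD libraries, RNA in 3 AT2 and 4 LUAD libraries, and translated ORFs were listed for 2 AT2 and 3 LUAD libraries. The labels give the LUAD organoids no genotype and title their ORF libraries KP. The series text names 2 AT2 cultures and 3 organoids from separate tumours, which matches the numbers of ORF libraries. Nothing says that the footprint and RNA libraries came from separate cultures. The p-values therefore rest on the spread between libraries alone, and that spread may be technical.

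In initiation, eIF1, eIF1A, eIF3, eIF5 and the eIF2 ternary complex assemble on the small subunit, and eIF4F (the cap binder eIF4E, the scaffold eIF4G and the helicase eIF4A) recruits it to the capped end of the messenger RNA. eIF5 triggers GTP hydrolysis on eIF2 at the start codon, eIF2B reloads eIF2 with GTP, and kinases that phosphorylate eIF2 alpha block that reloading under stress. Supply and activity of these factors set the rate of protein synthesis, and several of them are known to be altered in tumours.

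Many messenger RNAs of the translation machinery begin with a C and a run of pyrimidines, the 5′ terminal oligopyrimidine (TOP) start that couples their translation to mTOR. The first bases of the initiation factor transcripts are therefore shown for the members past the threshold in any comparison below, and for Eif3f. Of the 31 members with a RefSeq window, Eif3f alone has an annotated start of this kind. Transcription starts were not mapped here, so a TOP start at another position would be missed. The sequences are from RefSeq on GRCm38.p6, with 10 bases before the annotated start in lower case and the first 20 bases of the transcript in capitals.
Eif5 (chr12:111538091-111538120, plus strand): cgacgtgcatGCGAGCCAATGACAAGAGAA
Eif2b2 (chr12:85219471-85219500, plus strand): ccgagcggaaGTTGACCTCTCTCGGCCCGG
Eif2s1 (chr12:78862062-78862091, plus strand): ggttgggcgaAGCGCACGCTGAGGAGCTTC
Eif2a (chr3:58525811-58525840, plus strand): gactccgcccGCTCCGGAGAGGGAGGGCGA
Eif1b (chr9:120492596-120492625, plus strand): gcgcggggctAAATACGCGGCGCCGGCCAT
Eif3g (chr9:20898571-20898600, minus strand): acccgggctgGGAGCTGCGTGGAGTTAAGA
Eif4b (chr15:102073763-102073792, plus strand): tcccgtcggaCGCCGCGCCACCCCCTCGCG
Eif4a2 (chr16:23107458-23107487, plus strand): gaaaccccgtAGGAGCAGGGCGGCCGAGGA
Eif4g3 (chr4:137993446-137993475, plus strand): ccgagcggccGTCCTGCCGGACTGCTGGAG
Eif2ak3 (chr6:70844505-70844534, plus strand): agcagacgcaCGGAACCCTCGCTCAATGGG
Eif3f (chr7:108934405-108934434, plus strand): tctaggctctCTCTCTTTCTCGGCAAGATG

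Of the 39 genes, 31 had a RefSeq window from 250 bases before to 50 bases after the start, some with several starts; Eif6 is named only. A start with C followed by at least 4 further C or T was present in 1 of the 31 (3.23%) and in 3.01% of all 27025 genes with a window. Eif3f opened with 11 pyrimidines. The letters CACGTG, an E-box that reads the same on both strands and that MYC and USF proteins can bind, were present in the window of 7 members (22.6%), namely Eif1b, Eif3a, Eif3f, Eif3k, Eif4g1, Eif4h and Eif5a. The share was 8.09% over all genes with a window and 12.6% over the genes tested in RNA. TGATGNAA, the ATF4 response element searched on both strands, was in no member window. The share was 4.51% over all genes with a window and 2.56% over the genes tested in RNA. Neither of the last motifs contains the other, and a match is a description of the sequence.

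Summed estimated counts per library ran from 3030290 to 3834358 in AT2 footprints, 4803129 to 14249573 in LUAD footprints, 4122819 to 10233520 in AT2 RNA and 27181932 to 33203742 in LUAD RNA, of which 65.0 to 70.0% fell on transcripts paired with a listed gene. AT2 footprint library 1 stood apart, with a TMM scaling factor of 0.548 against 1.018 to 1.204 in the other 6. Deviations from the group means divided the 14 libraries into 2 sets in both assays and both kinds of organoid: set 1 holds AT2 footprint library 1, LUAD footprint libraries 1 and 2, AT2 RNA libraries 1 and 2 and LUAD RNA libraries 1 and 2, and set 2 holds the rest. Where that library or the sets move a member's value, the value without it or within sets is given. Sets 1 and 2 hold 1 and 2 AT2 footprint libraries but 2 and 1 AT2 RNA libraries, with 2 and 2 in LUAD in each assay. A difference between the sets therefore enters the LUAD to AT2 differences unevenly in the 2 assays, and so enters footprints per RNA. Trp53 lay at 52.5 to 80.9 counts per 1000000 (CPM) in AT2 footprints and at 0 to 1.21 CPM in LUAD footprints. Of 12 AT2 markers, 6 were tested and 5 of them, Sftpb, Sftpd, Abca3, Nkx2-1 and Lpcat1, were lower in LUAD in both assays; their list summed to 1070 to 1990 CPM in AT2 and 198 to 274 CPM in LUAD footprints. The AT1 list summed to 332 to 753 against 40.1 to 80.2 CPM, carried by Aqp5 (446 to 1.64 CPM on average), while the log2 differences of Cav1 and Rtkn2 footprints were 2.11 and 0.10, and Cav1 rose in RNA (1.87, adjusted p = 0.00379). The cycling list summed to 238 to 586 against 738 to 1070 CPM, and the leukocyte list, of which Cd14 and Mrc1 were measured, to 5.88 to 6.02 against 53.2 to 69.0 CPM. The ciliated list, measured through Tubb4b alone, summed to 316 to 945 against 541 to 1260 CPM. Ptprc and the basal, club, fibroblast and endothelial markers have no listed ORF and were not measured. The part of cell composition in the differences below was not tested, and in these bulk samples fewer cells of a type and less RNA per cell cannot be told apart.

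Levels are given as CPM of each library's total, scaled by TMM, and differences as log2 fold changes, LUAD minus AT2, with their standard error (SE) and with p-values adjusted by Benjamini-Hochberg over all genes tested in edgeR's quasi-likelihood test, called below 0.05. In footprints, 2 of the 38 members tested were called, Eif5 and Eif2b2, both higher in LUAD. That is 5.26% of members beside 21.3% of all 6820 genes tested (9.79% higher and 11.5% lower in LUAD). In RNA 11 of 37 were called, 29.7% beside 36.8% of all 6942 genes: Eif5, Eif6, Eif2s1, Eif2b2, Eif3g, Eif1b and Eif2a rose, and Eif4g3, Eif2ak3, Eif4b and Eif4a2 fell. Over all genes 18.5% were called higher and 18.3% lower in RNA. For footprints per RNA, the interaction of both assays in 1 fit, 1 of 38 members was called, Eif4b, which is 2.63% beside 0.748% of all 7086 genes (0.254% higher and 0.494% lower). Member medians were 0.13 in footprints, 0.15 in RNA and -0.10 in footprints per RNA, with all-gene medians of -0.00, 0.03 and -0.01. In footprints 9 of the 38 members had an unadjusted p under 0.05. So did at least 21.3% of all genes, the share called after adjustment. Single libraries moved the members' counts: the 7 higher in RNA became 3 without AT2 RNA library 1, 3 without library 2 and 12 without library 3, and the 2 higher in footprints became 4 without AT2 footprint library 2. Over all genes the 1285 higher calls in RNA became 845, 813 and 1780 under the same omissions, and the 668 in footprints became 504.

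**Figure D1:**
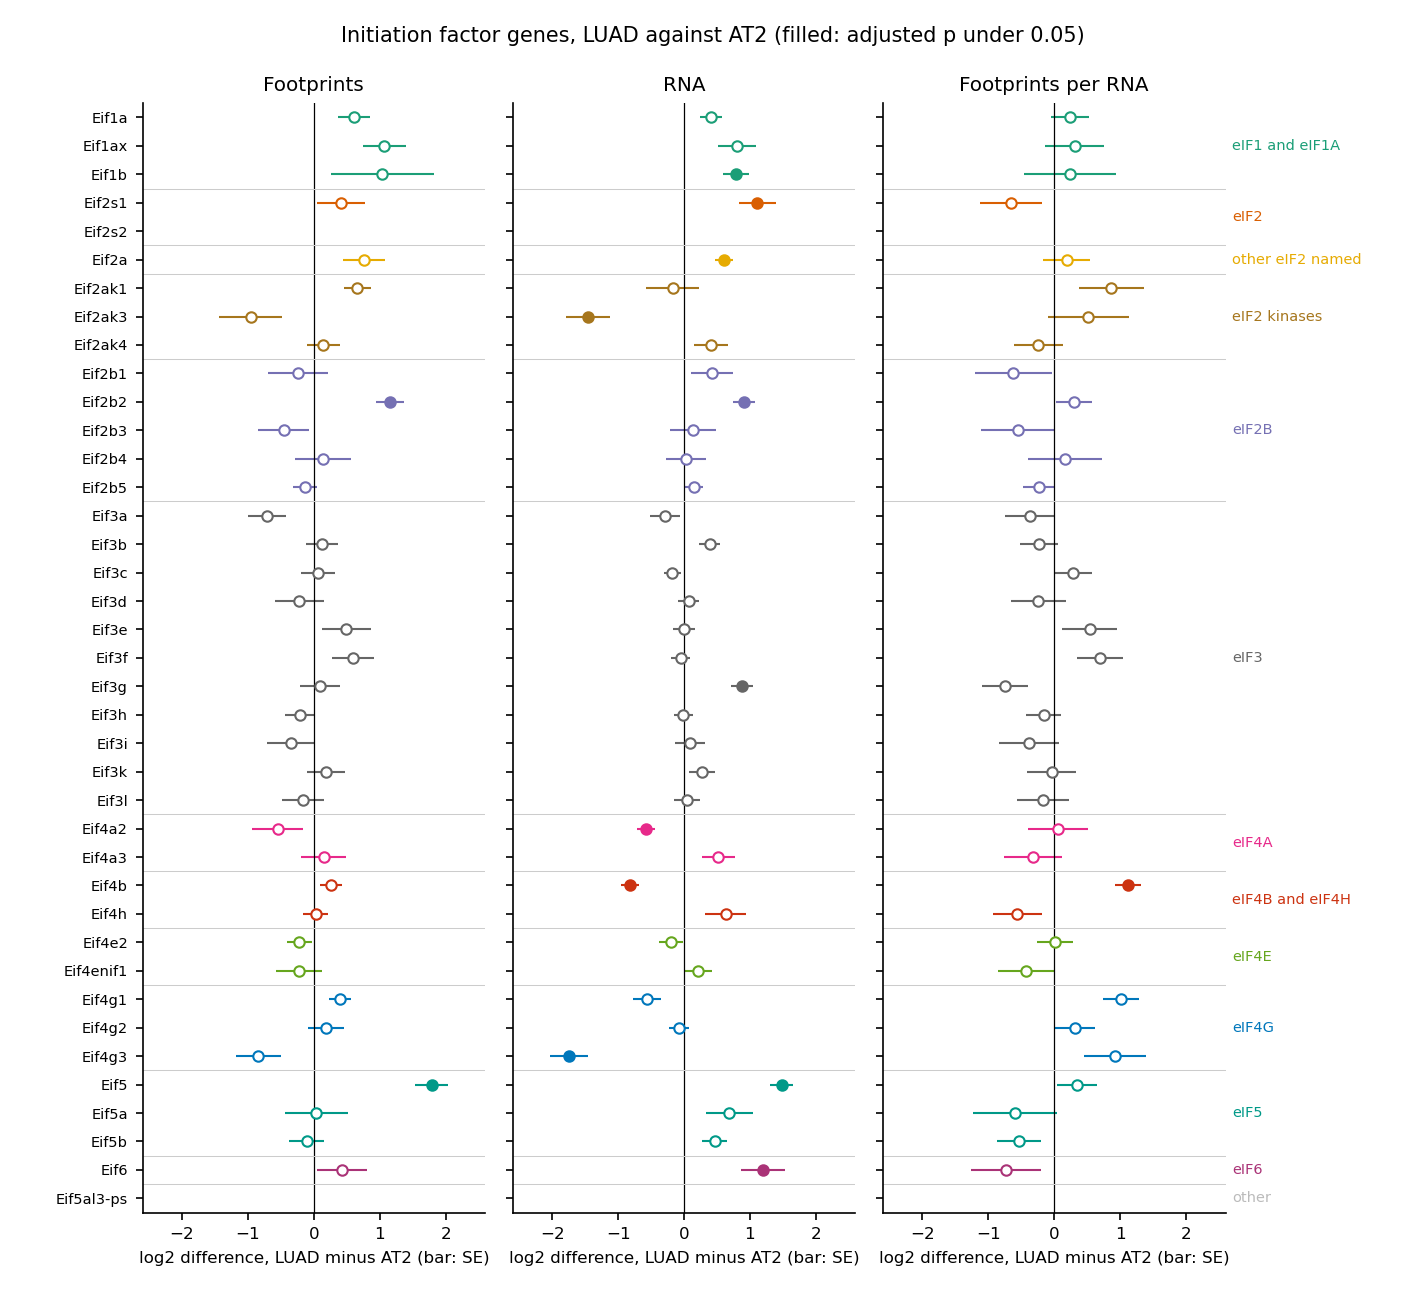
Log2 difference, LUAD minus AT2, with its standard error for each initiation factor gene (rows, grouped by complex) in footprints, RNA and footprints per RNA; filled points passed an adjusted p of 0.05. Filled points number 2, 11 and 1 from left to right; Eif2s2 was too low to test and the pseudogene Eif5al3-ps is not drawn.

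Same-numbered RNA libraries deviated together, but so did RNA libraries with other numbers in the same set. Deviations of AT2 RNA library 1 correlated at 0.43 with LUAD RNA libraries 1 and 2, those of AT2 RNA library 3 at 0.48 with 3 and 4. The number therefore cannot be told apart from the library set, and the calls it added rest on no known pairing. With that number as a block, 11 members were higher and 5 lower in RNA in place of 7 and 4, beside 38.0% of all genes. The block left 2 members called in footprints, beside 13.7% of all genes, and 1 in footprints per RNA, beside 1.27%. Same-numbered libraries did not all deviate together there. The correlation was -0.51 between AT2 and LUAD footprint libraries 2 and -0.23 between AT2 footprint and AT2 RNA library 2. The 5 genes added were Eif1ax, Eif5a, Eif5b and Eif4h among the higher and Eif4g1 among the lower. No call changed direction under any alternative. Scaling on all transcripts, in place of the genes with a listed ORF, moved the median of all genes. The shift was 0.15 in footprints, 0.17 in RNA and 0.29 in footprints per RNA, so that values near 0 depend on the scaling. The sign changed for Eif2b5 and Eif5b in footprints and for Eif3f, Eif3h and Eif4g2 in RNA. In footprints per RNA it changed for 7 members, Eif2ak4, Eif2b5, Eif3b, Eif3d, Eif3h, Eif3k and Eif3l. Member medians went from 0.13 to 0.28 in footprints, from 0.15 to 0.34 in RNA and from -0.10 to 0.17 in footprints per RNA. With that scaling the split of higher and lower calls over all genes went from 668 and 784 to 866 and 612 in footprints, from 1285 and 1273 to 1795 and 912 in RNA, and from 18 and 35 to 26 and 13 in footprints per RNA. Members then counted 5 higher and 0 lower in footprints and 13 higher and 3 lower in RNA.

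The eIF1 and eIF1A genes, which keep the small subunit in its scanning form and guard the choice of start codon, all had higher estimates in LUAD in both assays. Eif1b, a close paralog of Eif1, rose in RNA. Its RNA level was 35.2, 29.2 and 44.5 CPM in the AT2 libraries and 59.1, 55.7, 72.8 and 63.2 CPM in the LUAD libraries. The groups did not overlap, and the mean went from 36.3 ± 7.75 CPM (SD, n = 3) to 62.7 ± 7.4 CPM (SD, n = 4), a log2 difference of 0.79 ± 0.20 (SE, edgeR adjusted p = 0.0158). Without AT2 RNA library 1 or 2 the adjusted p was 0.0577 and 0.0628. Its footprints were few, 0, 9.24 and 10.8 CPM in AT2 and 18.6, 15.6, 12.3 and 11.1 CPM in LUAD.

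Eif1ax, the X-linked gene of eIF1A, had the highest footprint level of the group on average over all 7 libraries, above Eif1a in LUAD and below it in AT2. Its footprints were 65.0, 153 and 115 CPM in AT2 and 169, 205, 277 and 288 CPM in LUAD, so that every LUAD library was above every AT2 library. The difference of 1.07 ± 0.33 (SE) had an adjusted p of 0.0513, and of 0.0426 without AT2 footprint library 2. In RNA, where 1 AT2 library lay above 2 LUAD libraries, the difference was 0.81 ± 0.29 with an adjusted p of 0.0589, and 0.70 with an adjusted p of 0.00565 with the replicate block. Eif1a, a near-identical gene on another chromosome with which reads can be shared, had differences of 0.61 in footprints (adjusted p = 0.11) and 0.41 in RNA (adjusted p = 0.0842).

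eIF2 carries the initiator transfer RNA. Its alpha subunit, Eif2s1, whose phosphorylation is the switch of the integrated stress response, rose in RNA. Eif2s1 RNA was 91.7, 99.6 and 158 CPM in AT2 and 181, 206, 317 and 300 CPM in LUAD, with no overlap. Means were 116 ± 36.2 (SD, n = 3) and 251 ± 67.4 CPM (SD, n = 4), a difference of 1.11 ± 0.28 (SE, edgeR adjusted p = 0.0161), and leaving out AT2 RNA library 1 or 2 raised the adjusted p to 0.0678 and 0.0701. Both kinds of organoid had their higher Eif2s1 values in library set 2. Footprints on Eif2s1 overlapped, at 75.3, 185 and 201 CPM in AT2 and 160, 158, 251 and 250 CPM in LUAD (0.41 ± 0.36, adjusted p = 0.466), and the estimate was 0.07 without AT2 library 1 and 1.08 and 0.38 within sets. The beta subunit gene Eif2s2 was represented by a single retained-intron transcript, with 0 CPM in all AT2 footprint libraries and 0.694, 1.64, 0 and 0.128 CPM in LUAD, too low to test.

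Eif2a encodes a separate protein that can deliver initiator transfer RNA without eIF2; it is not the alpha subunit. Its RNA was 62.7, 65.8 and 75.9 CPM in AT2 and 99.8, 106, 112 and 98.7 CPM in LUAD. All LUAD libraries were above all AT2 libraries, and the difference was 0.61 ± 0.14 (SE, edgeR adjusted p = 0.0122). Over protein-coding transcripts alone it was 0.44 with an adjusted p of 0.0836. Leaving out AT2 RNA library 1 or 2 gave adjusted p of 0.0532 and 0.0522. A transcript typed for nonsense-mediated decay (NMD) held 7.33% of the Eif2a RNA counts in AT2 and 16.5% in LUAD. Footprints on the gene were 28.9, 32.8 and 21.3 CPM in AT2 and 29.7, 38.1, 60.1 and 58.1 CPM in LUAD (0.76 ± 0.32, adjusted p = 0.13).

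The kinases that phosphorylate eIF2 alpha sense different stresses. Eif2ak3 encodes PERK, the kinase of endoplasmic reticulum stress, and fell in RNA. It was at 82.8, 94.5 and 70.7 CPM in AT2 RNA and at 41.3, 41.3, 19.6 and 18.2 CPM in LUAD RNA, with no overlap. The mean went from 82.7 ± 11.9 to 30.1 ± 12.9 CPM (SD, n = 3 and 4), a difference of -1.46 ± 0.33 (SE, edgeR adjusted p = 0.0112), and the call held in all 15 alternatives. Within the LUAD RNA libraries, set 2 was below set 1, by a log2 ratio of -1.13. In footprints Eif2ak3 was 68.0, 19.3 and 55.8 CPM in AT2 and 34.2, 31.9, 17.0 and 14.4 CPM in LUAD, where AT2 library 2 lay below 2 LUAD libraries (-0.96 ± 0.48, adjusted p = 0.195).

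Eif2ak4, which encodes the amino acid sensor GCN2, had the highest footprint level of the kinases on average over all 7 libraries, though Eif2ak3 was higher in AT2 and Eif2ak1 in LUAD. Eif2ak4 footprints were 45.8, 28.3 and 28.2 CPM in AT2 and 43.2, 40.1, 33.0 and 32.7 CPM in LUAD. The groups overlapped, and differences were 0.14 ± 0.25 in footprints (adjusted p = 0.733) and 0.41 ± 0.26 in RNA (adjusted p = 0.245). Eif2ak1, the heme-regulated kinase HRI, had footprints of 21.7, 31.4 and 23.8 CPM in AT2 and 42.5, 39.9, 39.8 and 40.1 CPM in LUAD. These did not overlap, and the difference was 0.66 ± 0.21 with an adjusted p of 0.0589, or 0.0446 without AT2 footprint library 2. Its RNA was 37.8, 48.0 and 11.6 CPM in AT2 and 24.7 to 32.6 CPM in LUAD, so AT2 RNA library 3, of set 2, was low while the other two were above every LUAD library. Without that library the RNA difference was -0.56 with an adjusted p of 0.0409, against -0.17 (adjusted p = 0.758) with it. The difference in footprints per RNA was 1.28 with an adjusted p of 0.0325, against 0.87 (adjusted p = 0.47). Over all genes the same omission raised the calls from 2558 to 3362 in RNA and from 53 to 241 in footprints per RNA.

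eIF2B is the 5-subunit exchange factor that recharges eIF2 with GTP, and 1 of its genes was called. Eif2b2, the beta subunit of its regulatory part, rose in both footprints and RNA. Its footprints were 35.5, 29.7 and 24.8 CPM in AT2 and 55.4, 71.3, 75.0 and 65.7 CPM in LUAD, and its RNA 58.7, 67.4 and 65.3 CPM against 114, 100.0, 124 and 141 CPM. Neither assay had any overlap. Footprints went from 30.0 ± 5.34 to 66.8 ± 8.54 CPM (SD, n = 3 and 4; 1.16 ± 0.21 SE, edgeR adjusted p = 0.00738) and RNA from 63.8 ± 4.54 to 120 ± 17.1 CPM (0.91 ± 0.17 SE, adjusted p = 0.00428). A retained-intron transcript held 24.8% of the footprint counts in AT2 and 33.7% in LUAD, and over coding transcripts alone the footprint difference was 0.85 with an adjusted p of 0.137.

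The catalytic epsilon subunit Eif2b5 had the highest footprint level of eIF2B, 94.5, 90.2 and 92.2 CPM in AT2 and 77.4, 68.9, 92.5 and 98.8 CPM in LUAD. The LUAD values lay on both sides of the AT2 values (-0.13 ± 0.18, adjusted p = 0.658), and in RNA the difference was 0.15 ± 0.14 (adjusted p = 0.452). Eif2b1, Eif2b3 and Eif2b4 had footprint differences from -0.46 to 0.14 and RNA differences from 0.03 to 0.43, with overlap in each. Thus 1 of 5 subunits was called in footprints and in RNA, beside 21.3% and 36.8% of all genes. The difference between Eif2b2 and the other subunits was itself not tested.

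eIF3 is the large scaffold of the preinitiation complex, and none of its 11 genes was called in footprints and 1 in RNA (9.09%). Over all genes 21.3% were called in footprints and 36.8% in RNA. Footprint differences ran from -0.71 to 0.60 with a median of 0.06, and RNA differences from -0.29 to 0.88 with a median of 0.05. Summed over the complex, footprints were 2470, 4950 and 4830 CPM in AT2 and 2940, 3030, 3900 and 3920 CPM in LUAD, and RNA 3530, 3410 and 4130 against 3730, 3860, 3950 and 4030 CPM. The summed footprints differed more between library sets, within each kind of organoid, than between AT2 and LUAD.

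Eif3g, the subunit whose RNA-recognition domain sits near the messenger RNA entry channel, rose in RNA. It was at 167, 165 and 217 CPM in AT2 and at 323, 288, 370 and 369 CPM in LUAD, with no overlap. The mean went from 183 ± 29.2 to 337 ± 39.7 CPM (SD, n = 3 and 4), a difference of 0.88 ± 0.17 (SE, edgeR adjusted p = 0.00532) that was called in all 15 alternatives. Eif3g footprints overlapped, at 60.8, 102 and 133 CPM in AT2 and 81.0, 89.6, 125 and 128 CPM in LUAD (0.09 ± 0.30, adjusted p = 0.851), with an estimate of -0.17 without AT2 library 1 and of 0.49 and 0.10 within sets. The difference in footprints per RNA was -0.74 ± 0.35, with an adjusted p of 0.382.

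Eif3a, the largest subunit, had the highest footprint level of the complex and depended on 1 library. Its footprints were 911, 2100 and 2080 CPM in AT2 and 1040, 1030, 1020 and 1070 CPM in LUAD, so that AT2 library 1 was below all LUAD libraries and AT2 libraries 2 and 3 were above them. The difference was -0.71 ± 0.29 with an adjusted p of 0.128, and -1.03 with an adjusted p of 0.00259 without AT2 library 1. Within sets it was 0.19 in set 1 and -1.0 in set 2. In RNA the gene was at 441, 441 and 327 CPM in AT2 and 410, 386, 229 and 294 CPM in LUAD (-0.29 ± 0.23, adjusted p = 0.351). Eif3f, singled out after its values were seen, ranked far lower in footprints than in RNA. Per length it stood at 221 ± 18.1 transcripts per 1000000 (TPM) in AT2 RNA (SD, n = 3), rank 5 of the members, and at 8.79 ± 5.38 TPM in AT2 footprints, rank 34. In LUAD it was at 201 ± 28.0 TPM in RNA, rank 9, and 17.2 ± 3.92 TPM in footprints (SD, n = 4), rank 29. Eif3f footprints differed by 0.60 ± 0.32 between LUAD and AT2 (adjusted p = 0.231).

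Among the 9 eIF4 genes, 3 fell in RNA and none was called higher, beside 18.3% lower and 18.5% higher of all genes; with the replicate block Eif4g1 was also called lower and Eif4h higher. None was called in footprints, where 2 had an unadjusted p under 0.05, as did at least 21.3% of all genes. eIF4B stimulates the helicase eIF4A and is phosphorylated downstream of mTOR, and Eif4b was the only member called in footprints per RNA. Eif4b RNA was 544, 532 and 517 CPM in AT2 and 319, 325, 274 and 283 CPM in LUAD. Its footprints were 309, 411 and 389 CPM in AT2 and 464, 436, 435 and 434 CPM in LUAD. AT2 and LUAD overlapped in neither assay, and the estimates had opposite signs.

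The Eif4b RNA mean went from 531 ± 13.2 to 300 ± 25.2 CPM (SD, n = 3 and 4), a difference of -0.82 ± 0.13 (SE, edgeR adjusted p = 0.0024) called in all 15 alternatives. Footprints went from 370 ± 53.3 to 443 ± 14.5 CPM, a difference of 0.26 ± 0.17 with an adjusted p of 0.336. The difference in footprints per RNA was 1.12 ± 0.20 (SE, edgeR adjusted p = 0.0257). It kept its direction in all 22 alternatives, from 0.98 to 1.69, and lost the call in 10 of them. Those were limma on log2 TPM (1.69, adjusted p = 0.188) and leaving out AT2 footprint library 3, any 1 LUAD footprint library, AT2 RNA library 1 or 2, or LUAD RNA library 3 or 4, with adjusted p from 0.0517 to 0.0739. Eif4h, a relative of eIF4B, had an RNA difference of 0.63 ± 0.31 (adjusted p = 0.147) and a footprint difference of 0.03 ± 0.19.

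eIF4G is the scaffold that joins eIF4E, eIF4A and eIF3, and Eif4g3, one of its paralogs, fell in RNA, with the lowest difference of all members tested. Its RNA was 77.5, 74.1 and 42.1 CPM in AT2 and 25.7, 21.5, 14.2 and 15.8 CPM in LUAD. The groups did not overlap, and the mean went from 64.6 ± 19.5 to 19.3 ± 5.31 CPM (SD, n = 3 and 4), a difference of -1.75 ± 0.29 (SE, edgeR adjusted p = 0.00291) called in all 15 alternatives. In footprints it was at 227, 113 and 90.4 CPM in AT2 and 94.8, 95.2, 62.3 and 67.1 CPM in LUAD. AT2 library 1 was far above the rest and AT2 library 3 lay below 2 LUAD libraries (-0.84 ± 0.34, adjusted p = 0.117). Without library 1 the estimate was -0.38 (adjusted p = 0.252), and within sets it was -1.26 and -0.65.

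Eif4g1, the main scaffold, had the highest footprint level of the group and also had estimates of opposite sign in the 2 assays. Its footprints were 648, 555 and 618 CPM in AT2 and 849, 740, 792 and 831 CPM in LUAD, and its RNA was 308, 295 and 239 CPM in AT2 and 235, 214, 135 and 176 CPM in LUAD. Neither assay had an overlap. Differences were 0.40 ± 0.17 in footprints (adjusted p = 0.13), -0.56 ± 0.21 in RNA (adjusted p = 0.0656; 0.0218 with the replicate block) and 1.01 ± 0.27 in footprints per RNA (adjusted p = 0.113). Without AT2 footprint library 1 the last was 1.04 (adjusted p = 0.0495), and leaving out AT2 RNA library 3 gave 1.14 (adjusted p = 0.0429). The same omissions raised the calls in footprints per RNA over all genes from 53 to 423 and 241. Over coding transcripts alone the difference in footprints per RNA was 1.33 (adjusted p = 0.0286), with 68.5% of the Eif4g1 RNA counts on such transcripts. Eif4g2, a cap-independent relative, had differences of 0.18 ± 0.27, -0.08 ± 0.15 and 0.31 ± 0.31 in the same order. Over all genes the difference in footprints per RNA rose with transcript length (Spearman correlation 0.383 across 7086 genes, which share their libraries and are not replicates; 0.37 across the members), and Eif4b and Eif4g1 are long, at mean transcript lengths of 3468 and 4991 bases. With the length trend removed Eif4b stood at 1.02 with an adjusted p of 0.034.

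**Figure D2:**
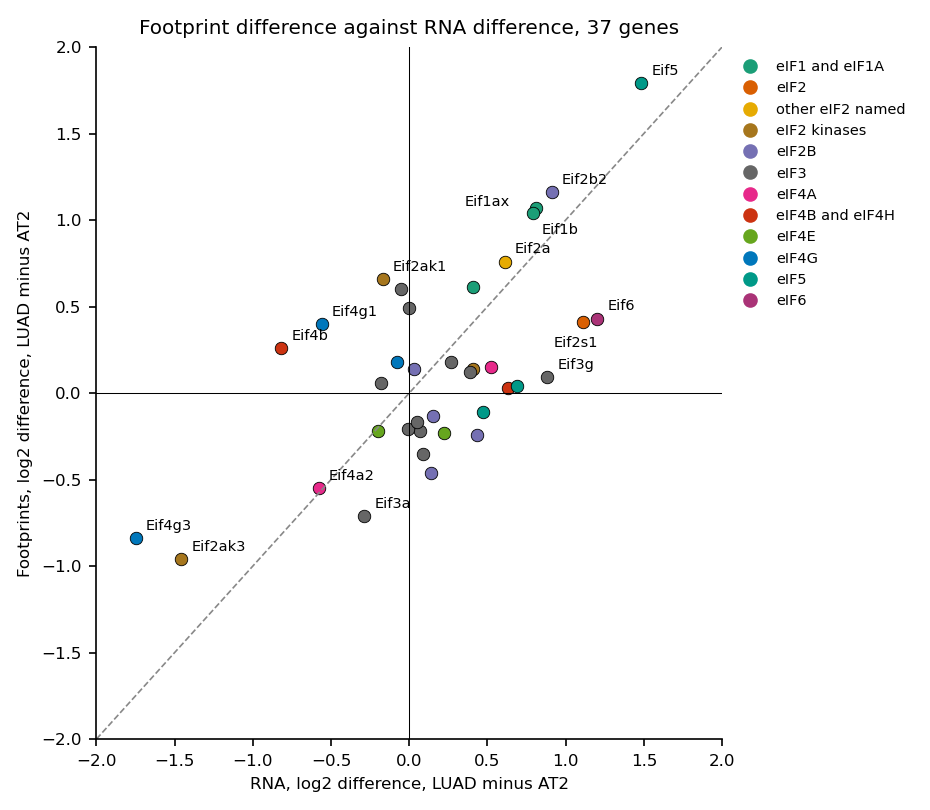
Footprint difference (vertical) against RNA difference (horizontal), both log2, LUAD minus AT2, for the 37 genes tested in both; colours mark the complexes and the dashed line marks equal values. Eif5 and Eif2b2 lie in the upper right, Eif4g3 and Eif2ak3 in the lower left, and Eif4b and Eif4g1 in the upper left, with negative RNA and positive footprint values.

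eIF4A is the helicase that unwinds the leader. Eif4a2, one of its paralogs, fell in RNA: it was at 281, 286 and 228 CPM in AT2 and 177, 186, 181 and 163 CPM in LUAD. Without overlap, the mean went from 265 ± 32.1 to 177 ± 9.97 CPM (SD, n = 3 and 4), a difference of -0.58 ± 0.14 (SE, edgeR adjusted p = 0.0141). The call was lost with TMM factors on all transcripts (-0.42, adjusted p = 0.0736) and without AT2 RNA library 1 or 2 (adjusted p = 0.059 and 0.0629). Its footprints were 266, 83.7 and 91.7 CPM in AT2 and 97.4, 109, 104 and 87.9 CPM in LUAD, with AT2 library 1 alone standing high (-0.55 ± 0.39, adjusted p = 0.365). Without that library the estimate was 0.16 (adjusted p = 0.476), and within sets it was -1.37 in set 1 and 0.13 in set 2. Only 33.5% of the Eif4a2 RNA counts and 44.5% of its footprint counts fell on coding transcripts. Eif4a3, the paralog in the exon junction complex, differed by 0.15 ± 0.34 in footprints and 0.52 ± 0.25 in RNA (adjusted p = 0.134).

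Of the eIF4E genes, Eif4e2, a cap-binding relative that can hold back translation, had footprints of 138, 138 and 136 CPM in AT2 and 101, 99.3, 140 and 131 CPM in LUAD. The LUAD libraries of set 1 were below AT2 and those of set 2 close to it (-0.22 ± 0.19, adjusted p = 0.439). In RNA the difference was -0.20 ± 0.18 (adjusted p = 0.422). Eif4enif1, a transporter of eIF4E to the nucleus and to P-bodies, differed by -0.23 ± 0.35 in footprints and 0.22 ± 0.21 in RNA.

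Eif5 had the highest difference of all members in both assays. The gene lies at chr12:111538101-111546753 of GRCm38.p6 and encodes the factor that activates the GTPase of eIF2. Footprints on Eif5 were 105, 153 and 173 CPM in AT2 and 393, 474, 563 and 558 CPM in LUAD. RNA was 206, 188 and 262 CPM in AT2 and 542, 542, 689 and 667 CPM in LUAD. Every LUAD library was far above every AT2 library in both assays.

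Eif5 footprints went from 144 ± 35.0 to 497 ± 80.3 CPM (SD, n = 3 and 4), a difference of 1.79 ± 0.25 (SE, edgeR adjusted p = 0.00232), and RNA from 219 ± 38.4 to 610 ± 79.2 CPM, a difference of 1.48 ± 0.18 (adjusted p = 0.00074). The RNA call held in all 15 alternatives. Within library sets the differences were 2.05 in set 1 and 1.78 in set 2 for footprints, and 1.46 and 1.37 for RNA. The difference in footprints per RNA was 0.35 ± 0.30 (adjusted p = 0.65). The deposited tables placed the 2 assays on different Eif5 transcripts: 2 NMD transcripts held 75.8% of the footprint counts in AT2 and 76.1% in LUAD, but 0.248% and 0.303% of the RNA counts, of which 93.6% and 93.1% were on coding transcripts. Coding transcripts held 10.9% and 7.71% of the footprint counts, and over them alone the footprint difference was 1.20 with an adjusted p of 0.117. Short footprints that match several transcripts are divided among them by the estimator, so the sum over a gene and the share of 1 transcript do not carry the same certainty.

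Eif5a, the hypusine-carrying factor that assists peptide bond formation and termination, had the highest level per length of all members in each kind of library. It was at 836 ± 602 TPM in AT2 and 1230 ± 441 TPM in LUAD footprints, and at 611 ± 164 and 950 ± 274 TPM in RNA (SD, n = 3 and 4). Its footprints were 440, 1370 and 1380 CPM in AT2 and 672, 690, 1500 and 1520 CPM in LUAD, and its RNA 528, 533 and 1090 CPM against 783, 804, 1490 and 1550 CPM. In each of these 4 groups the libraries of set 2 were above those of set 1, and the AT2 and LUAD ranges overlapped. Differences were 0.04 ± 0.48 in footprints (adjusted p = 0.964; -0.34 and 0.547 without AT2 library 1) and 0.69 ± 0.36 in RNA (adjusted p = 0.171), the latter 0.54 with an adjusted p of 0.013 with the replicate block. Eif5al3-ps, a processed pseudogene of this family, had 8.43 to 27.9 CPM in footprints and at most 0.401 CPM in RNA; its footprints can be reads of Eif5a, and its value in footprints per RNA has no interpretation.

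Eif5b, the GTPase that joins the large subunit, had footprint differences of 0.66 in set 1 and -0.35 in set 2. It differed by -0.11 ± 0.27 in footprints over all libraries (adjusted p = 0.815; -0.40 and 0.0768 without AT2 library 1) and 0.47 ± 0.19 in RNA (adjusted p = 0.0786; 0.019 with the replicate block). A retained-intron transcript held 90.6% of its AT2 and 94.6% of its LUAD footprint counts and 69.9% and 67.2% of its RNA counts. Over its coding transcript alone the footprint difference was -1.02 with an adjusted p of 0.0397. Of all members, 9 had less than 80% of their footprint counts on coding transcripts and 6 had less than 80% of their RNA counts there.

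Eif6, which keeps the large subunit from joining too early and takes part in making it, rose in RNA. Eif6 was at 116, 114 and 277 CPM in AT2 RNA and at 359, 302, 426 and 465 CPM in LUAD RNA. The groups did not overlap, but AT2 library 3, of set 2, lay close to the lowest LUAD library and far above the other AT2 libraries. Eif6 lies at chr2:155819837-155826925. The mean went from 169 ± 93.5 to 388 ± 71.9 CPM (SD, n = 3 and 4), a difference of 1.20 ± 0.34 (SE, edgeR adjusted p = 0.0267). It lost the call without AT2 RNA library 1 (adjusted p = 0.0957) or 2 (0.0968) or LUAD RNA library 3 (0.0606) or 4 (0.0632). Eif6 footprints were 103, 287 and 302 CPM in AT2 and 265, 231, 368 and 381 CPM in LUAD (0.43 ± 0.38, adjusted p = 0.472), with AT2 library 1 alone below the LUAD range. Without library 1 the estimate was 0.06 (adjusted p = 0.877), and within sets it was 1.27 and 0.35. In RNA the within-set values were 1.52 and 0.68.

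**Figure D3:**
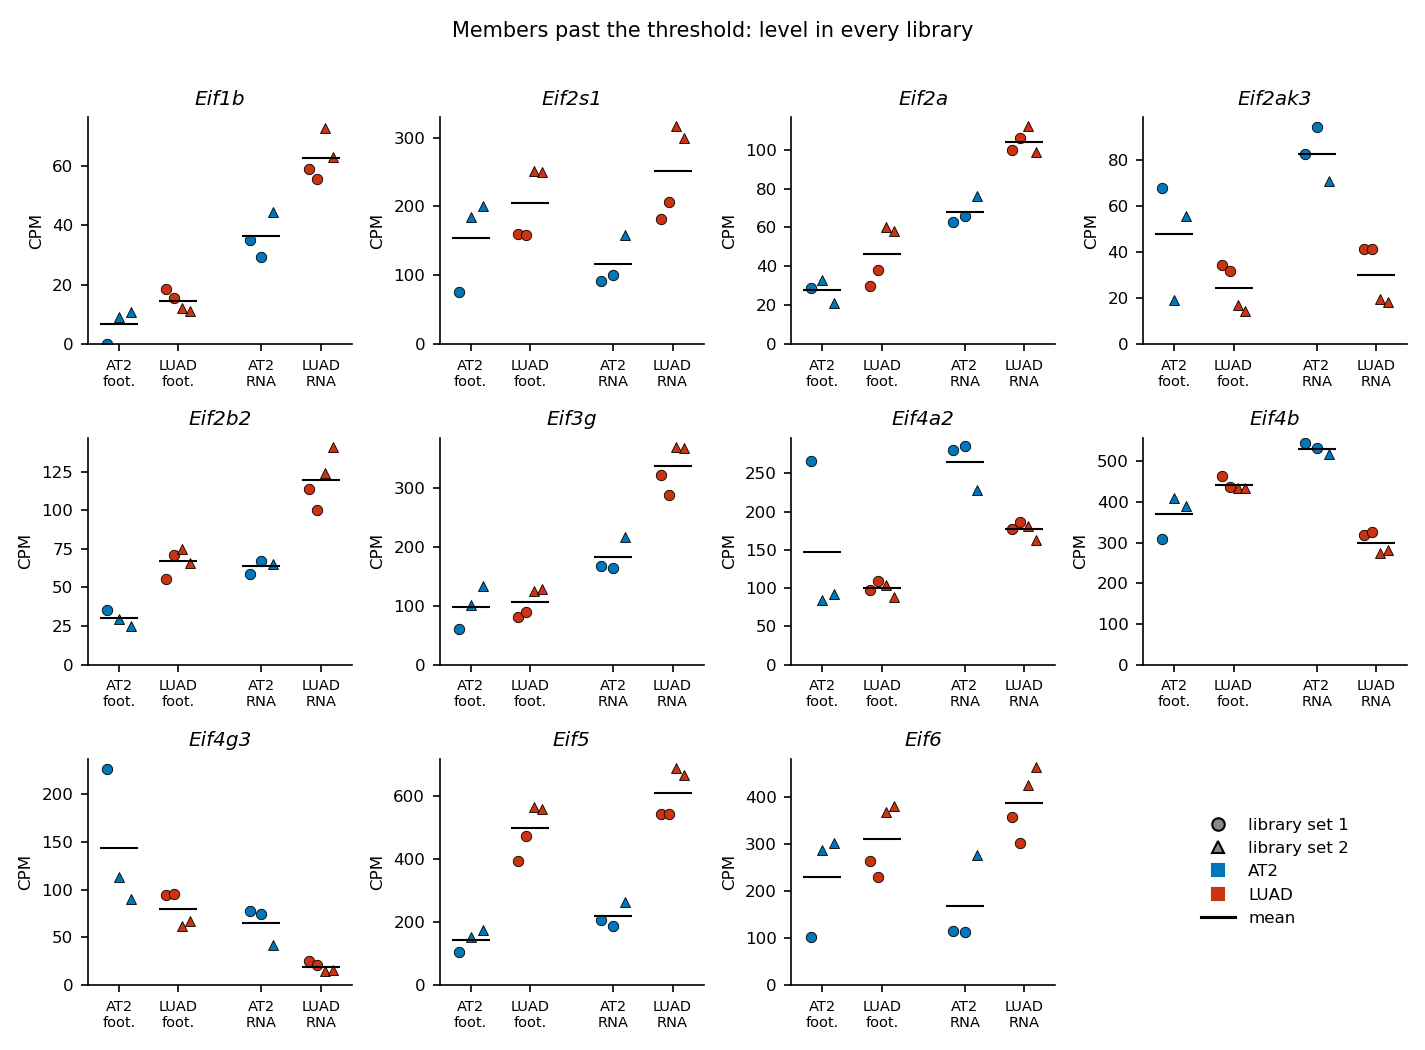
Level in CPM (vertical axis, starting at 0) of the 11 members past the threshold in any comparison, for AT2 (blue) and LUAD (red) footprint and RNA libraries; each point is a library, circles are set 1 and triangles set 2, and bars are group means. Eif5 and Eif2b2 have no overlap between AT2 and LUAD in either assay, and Eif4b has none while its 2 assays differ in direction.

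AT2 and LUAD ranges did not overlap for 8 of the 38 members in footprints, beside 35.7% of all genes tested, and for 14 of the 37 in RNA, beside 45.4%. In all 8 footprint cases LUAD was higher, and in RNA LUAD was higher in 9 and lower in 5. The 8 were Eif1a, Eif1ax, Eif1b, Eif2ak1, Eif2b2, Eif4b, Eif4g1 and Eif5. Summed over all 39 genes, footprints were 6070, 10200 and 10100 CPM in AT2 and 7800, 7980, 10300 and 10400 CPM in LUAD, and RNA 7690, 7550 and 9450 against 8720, 8780, 10300 and 10400 CPM. The lower and higher values again followed the library sets.

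For most members the 2 sets differed in the same direction in AT2 and in LUAD. The sets were drawn from the deviations of the AT2 and LUAD libraries together, so part of this agreement is built in. The same count over all genes was not made. In footprints 23 of the 37 members with values in both sets were higher in set 2 in both kinds of organoid and 4 were lower in both; in RNA 23 of 37 were higher and 10 lower. The log2 difference of set 2 over set 1 reached 1.64 in AT2 and 1.15 in LUAD footprints for Eif5a, and it was -0.86 and -1.08 for Eif2ak3 and -1.16 and -0.55 for Eif4g3. For the members called in RNA, the within-set RNA differences had the same sign in both sets. Among the higher they ran from 0.47 for Eif2a in set 2 to 1.52 for Eif6 in set 1. Among the lower they ran from -0.40 for Eif4a2 in set 2 to -1.90 for Eif2ak3 in set 2. The 2 sets gave the same direction of LUAD against AT2 for 25 of 37 members in footprints and 26 of 37 in RNA. With the set as a term in the fit, 14 members were called in footprints (12 higher, 2 lower) beside 42.3% of all genes, 21 in RNA (15 higher, 6 lower) beside 54.0%, and 5 in footprints per RNA, all higher, beside 7.15%. Since the sets were read from these same data, the added calls are no independent support.

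**Figure D4:**
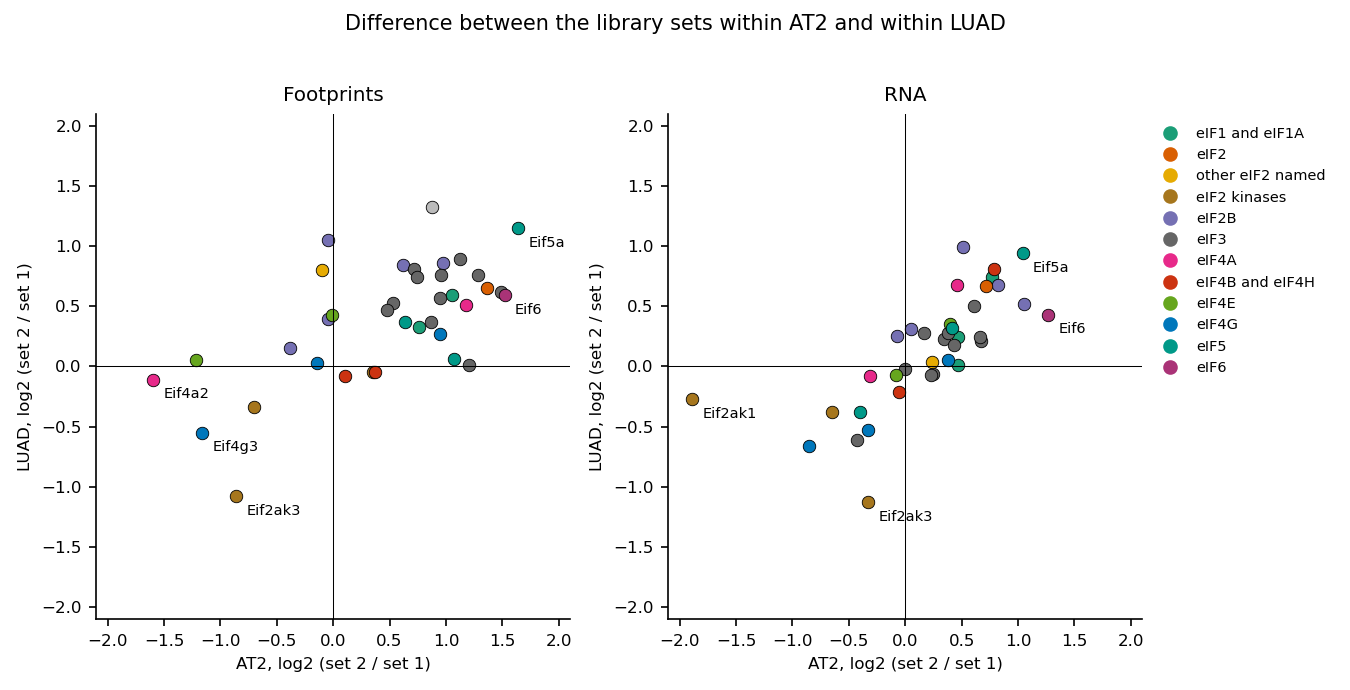
Log2 ratio of set 2 over set 1 in LUAD (vertical) against the same ratio in AT2 (horizontal) for each member, in footprints and RNA; colours mark the complexes, and the grey point is Eif5al3-ps. Most points lie in the upper right, where set 2 is higher in both kinds of organoid, and Eif2ak3 and Eif4g3 lie in the lower left. The sets were drawn from AT2 and LUAD libraries together, so part of this agreement is built in.

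The partners of these factors were read from a list of 46 genes, of which 39 have a listed ORF. In footprints 2 of 36 tested were called, both lower in LUAD, in RNA 4 were higher and 4 lower of 37, and in footprints per RNA 1 of 37 was lower. The called shares, 5.56% in footprints and 21.6% in RNA, were below those of all genes, 21.3% and 36.8%. In footprints per RNA the share, 2.7%, was above the 0.748% of all genes, of which 0.494% were lower. Of the 4E-BPs, which hold eIF4E away from eIF4G, Eif4ebp1 rose in RNA from 88.5 ± 18.5 to 232 ± 70.9 CPM (SD, n = 3 and 4; 1.40 ± 0.28 SE, edgeR adjusted p = 0.00605) and Eif4ebp2 fell from 71.2 ± 7.41 to 43.0 ± 8.66 CPM (-0.73 ± 0.19, adjusted p = 0.0204). Mknk1 and Mknk2, the kinases that phosphorylate eIF4E, both fell in RNA, by 1.21 and 0.65 on the log2 scale (adjusted p = 0.0222 and 0.00888). Of the mTORC1 list, Mtor fell in footprints from 78.3 ± 6.22 to 34.3 ± 4.61 CPM (-1.19 ± 0.18, adjusted p = 0.00376), Tsc2 fell in RNA (-1.23 ± 0.32, adjusted p = 0.0177), and Rheb, the small GTPase that activates mTORC1, rose in RNA (0.97 ± 0.15, adjusted p = 0.00192) and was lower in footprints per RNA (-1.03 ± 0.22, adjusted p = 0.0484). Atf4, the transcription factor made when eIF2 alpha is phosphorylated, rose in RNA from 302 ± 46.7 to 621 ± 273 CPM (1.04 ± 0.35, adjusted p = 0.046). Atf4 RNA was 271, 280 and 356 CPM in AT2 and 368, 401, 875 and 840 CPM in LUAD. The LUAD libraries of set 2 were far above those of set 1, and the lowest LUAD library lay close to the highest AT2 library. Abcf1, a ribosome-associated partner of eIF2, fell in footprints from 398 ± 108 to 161 ± 17.0 CPM (-1.31 ± 0.23, adjusted p = 0.00609), and Denr, a factor of ribosome recycling and reinitiation, rose in RNA (1.03 ± 0.25, adjusted p = 0.0155). Several of these had footprint estimates that differed in sign from RNA, none of them past the threshold. The footprint values were 0.43 ± 0.41 for Eif4ebp2, -0.30 ± 0.22 for Denr and -0.10 ± 0.18 for Rheb, and Denr stood at -1.29 ± 0.34 in footprints per RNA (adjusted p = 0.109). Footprints were 0.25 ± 0.27 for Eif4ebp1, 0.53 ± 0.39 for Atf4, -0.38 ± 0.48 for Mknk2 and -0.12 ± 0.47 for Tsc2, and RNA was -0.84 ± 0.42 for Mtor and -0.28 ± 0.13 for Abcf1, all with the sign of the called value. None of the 7 elongation factor genes and 2 termination factor genes tested was called in any comparison. Over all genes 21.3% were called in footprints, 36.8% in RNA and 0.748% in footprints per RNA.

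The ORF lists hold P-site counts, the inferred ribosome positions, in each reading frame. In the authors' deposited table, the members had 257 ORFs counted once per list, of which 59 had a p-value under 0.001, and 164 distinct ORFs, 85 of them annotated coding ORFs. In the deposited table, 10 and 13 members had an annotated ORF in the AT2 lists, which hold 2597 and 4426 ORFs, and 26, 24 and 16 in the LUAD lists, which hold 13380, 8122 and 5372 ORFs. Member ORFs of any type did not rise at every step of list size. The authors' deposited table held 33 (1.27% of the list) and 26 (0.587%) in the AT2 lists. The LUAD lists of the deposited table held 84 (0.628%), 56 (0.689%) and 58 (1.08%), with the most in the longest list. An ORF of any type was listed for 21 and 13 members in the AT2 lists and for 31, 27 and 24 in the LUAD lists of the deposited table. An annotated ORF was in lists of both kinds for 19 members, in LUAD lists alone for 16, in AT2 lists alone for 2 and in none for 2. For an ORF of any type the authors' deposited table gave 24, 14 and 1 members in both kinds, LUAD alone and AT2 alone, beside 2622, 4190 and 572 of all 7384 genes. The AT2 lists held 106033 and 263025 P-sites and the LUAD lists 613049 to 4461550, and the part of depth in these counts was not tested. With 2 against 3 libraries no test was made.

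Eif3c was the member whose annotated ORF, of 911 codons, appeared in all 5 lists of the authors' deposited table, with 208, 110, 1358, 253 and 276 in-frame P-sites and in-frame values of 28.2, 28.4, 42.0, 33.9 and 32.8 RPKM (P-sites per kilobase, scaled to library size). For Eif5 the authors' deposited table held the full coding ORF of 429 codons in LUAD lists 1 and 3, with 680 and 131 in-frame P-sites, and a 53-codon annotated ORF from the same start in AT2 list 1, with 12, and in LUAD lists 1 and 3, with 95 and 42. The 611-codon ORF of Eif4b was in LUAD lists 2 and 3 of the deposited table, with 165 and 192 in-frame P-sites. It was in no AT2 list. The share of P-sites in frame for Eif3c was 39.3% to 52.3% across the lists in the deposited table, below the median of all ORFs of each list, which ran from 52.1% to 55.6%.

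Besides annotated ORFs, the authors' deposited table listed 79 others in 29 members: 46 on transcripts with no annotated coding sequence, 19 internal, 6 downstream or overlapping the end of the coding sequence and 8 upstream or overlapping its start. Eif5 had 9 of them, Eif4g1 7, Eif4g2 and Eif4a2 6 each, and the other 25 members 1 to 5 each. Of the 79, 59 were in 1 list, 15 in 2 and 5 in 3. The 5 in the deposited table's largest number of lists were a 139-codon ORF of Eif3h on a long non-coding transcript (chr15, mm10, start 51790495) and ORFs on retained-intron transcripts of Eif3l (200 codons, start 79075260, and 382 codons, start 79084079), Eif5 (39 codons, start 111539616) and Eif5b (502 codons, start 37998290). The Eif5 and Eif5b ORFs begin at the same position as the annotated coding ORFs of 429 and 1216 codons in the deposited table, and the 200-codon Eif3l ORF begins with the annotated one of 564 codons. The 382-codon Eif3l ORF and the Eif3h ORF end at the stop of the annotated ORFs of 564 and 352 codons in the deposited table. The P-sites of all 5 can therefore be those of the coding ORF. In-frame P-sites in the deposited table were 112, 40 and 37 for Eif3h in the 3 LUAD lists, 431, 44 and 54 for Eif5b in the same lists, and 9, 43 and 26 for Eif5 in AT2 list 1 and LUAD lists 1 and 3.

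Upstream ORFs were listed for 6 members in the authors' deposited table, each in 1 list. In the deposited table Eif4g1 had 2 before its start codon, of 20 codons with 20 of 32 P-sites in frame (LUAD list 1) and of 50 codons with 15 of 25 (LUAD list 3). Eif4e2, with 49 codons, and Eif5b, with 47, had 1 each in LUAD list 2 of the deposited table. Eif5, with 97 and 61 codons, had ORFs overlapping the start of its coding sequence in LUAD list 1 of the deposited table, and Eif2ak3, with 154 codons, and Eif5a, with 41, in AT2 list 1. At 8 to 57 P-sites outside Eif5, and at p-values from 0.00169 to 0.0497, none of these deposited ORFs passed the stricter p-value of 0.001.

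**Figure D5:**
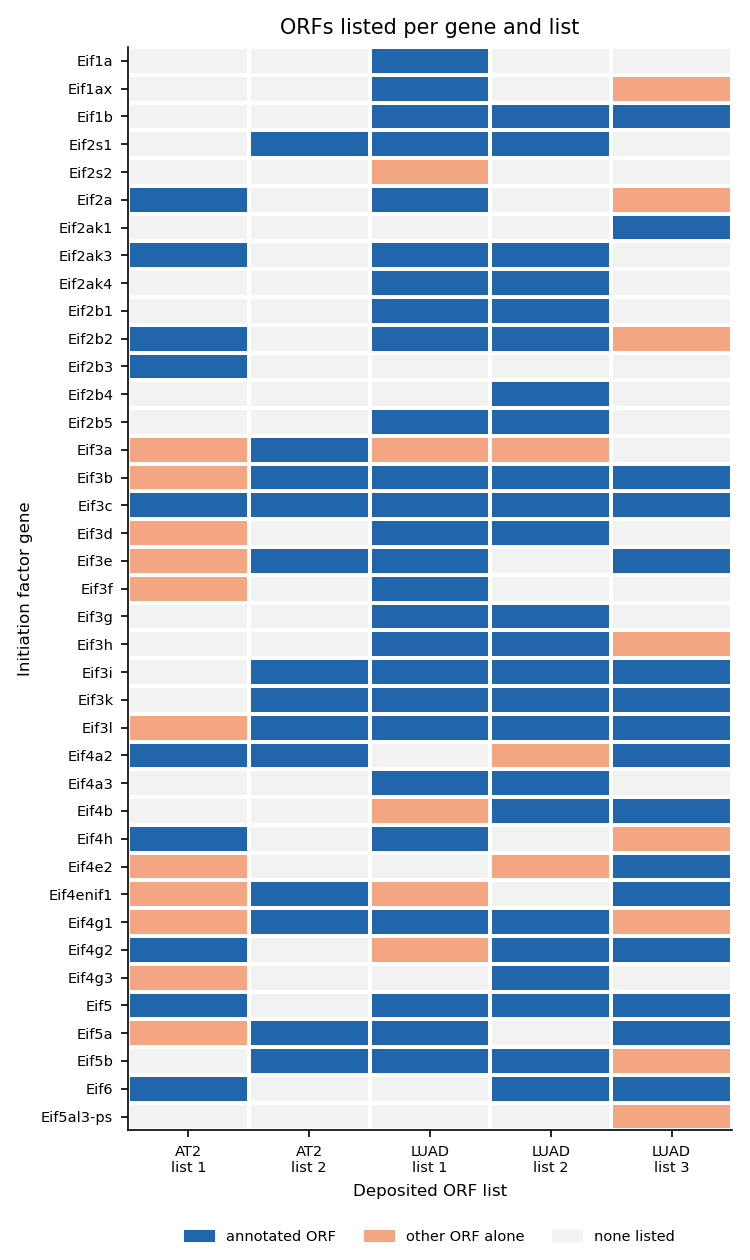
ORFs in the authors' deposited lists for each initiation factor gene (rows) and list (columns): blue marks an annotated coding ORF, orange another ORF with no annotated one, and grey none. Eif3c is blue in all 5 lists, and the LUAD lists, which are longer, hold more blue cells (26, 24 and 16) than the AT2 lists (10 and 13).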

How the data were processed

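Per the labels' protocols, footprints were captured with RiboLace and libraries made with the Takara SMARTer small RNA kit; the labels give the RNA libraries the same text. The authors deposited estimated counts and TPM per transcript, made with kallisto per the submitters' processing notes; no source used here gives its version or the transcript release. The deposited ORF lists, on mm10 per the labels, hold P-site counts, RPKM and p-values per ORF.

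Estimated counts were summed per gene over the transcripts that the ORF lists pair with a gene name (22509 of 118489 transcripts, 7266 genes), so a gene without a listed ORF was not measured, and rounded. Genes were filtered with filterByExpr. edgeR 4.0.16 (R 4.3.3) fitted quasi-likelihood models with TMM factors and Benjamini-Hochberg adjustment over all genes, called below 0.05. Footprints per RNA was the interaction over all 14 libraries. Alternatives used DESeq2 1.42.0, limma 3.58.1 on log2(TPM + 0.5), TMM factors on all transcripts, other filters, a replicate block and leaving out each library. Scripts were tested on simulated data. There 6% of 2-fold changes were called in footprints, 14% in RNA and 6% in footprints per RNA. Of 4-fold changes, 69%, 83% and 45% were called. The simulation changed 100 genes at each fold, of 6729 tested in footprints and 6913 in RNA. In the data 21.3% and 36.8% of genes were called. The adjusted threshold was therefore stricter in the simulation for these 2 assays, and the shares recovered there need not hold for the data. A member that was not called is still not shown to be unchanged.

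Members named with full values were all members called in any comparison and, in each group, the gene with the highest mean CPM over all footprint libraries; others are given by range, or named after their values were seen. The members and gene lists were chosen with earlier results of these data known. Same-numbered RNA libraries deviated together (correlations of 0.43, 0.4 and 0.48). RNA libraries with other numbers in the same set did so equally (0.43, 0.4 and 0.48). The block treated the number as a pairing, which it is not shown to be, and it cannot be told apart from the library set. Same-numbered footprint libraries did not all deviate together (0.58, -0.51 and 0.45). Near-identical copies (Eif1a and Eif1ax; Eif5a and Eif5al3-ps) can share reads, so the division between them is uncertain.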

Additional observations from a re-analysis of the deposited data

Results flagged for a closer look

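In 3 of the 75 groups of 4 LUAD libraries looked at, 1 library stood apart from the others by a gap, relative to the group's range, above Dixon's critical value for 4 samples; chance gives this in about 1 in 20 groups. Eif2ak1 footprints were 42.5 CPM in LUAD footprint library 1 and 39.8 to 40.1 CPM in the other libraries (gap over range 0.891). Eif4b footprints were 464 CPM in the same library and 434 to 436 CPM in the others (0.936). Eif4g2 RNA was 805 CPM in LUAD RNA library 3 and 758 to 762 CPM in the others (0.906). In each case the other 3 libraries lay close together.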

How the results depend on the processing

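No call changed direction in any alternative. Over all genes, 1452 were called in footprints, against 933 with the replicate block, 861 with limma on log2 TPM, 2882 with the library set as a term and 841 to 1888 when 1 library was left out. The RNA count of 2558 ran from 1613 to 3362 when 1 library was left out. The count of 53 for footprints per RNA was 375 with DESeq2, 90 with the replicate block, 2 with limma, 507 with the library set and 13 to 423 without 1 library. It was over 1.5 times higher without AT2 footprint library 1 (423) and AT2 RNA library 3 (241). The footprint count fell by over 1.5 times without LUAD footprint library 2, 3 or 4 (904, 841 and 856), and the RNA count without AT2 RNA library 1 or 2 (1681 and 1613).

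Among members, the 2 higher in footprints became 5 with DESeq2, 5 with TMM factors on all transcripts, 12 with the library set, 0 over coding transcripts alone and 2 to 4 without 1 library. Over all genes the 668 higher became 1018 with DESeq2 and 866 with TMM factors on all transcripts. They became 1455 with the library set and 518 over coding transcripts alone. None was lower in footprints in the main edgeR fit. In that fit 9 members had an unadjusted p under 0.05, in either direction, as did at least 21.3% of all genes. The number lower was 2 with the library set, 1 over coding transcripts, 1 with the length trend removed and 0 to 1 without 1 library. The 7 higher in RNA became 11 with DESeq2, 13 with all-transcript factors, 11 with the replicate block, 15 with the library set and 3 to 12 without 1 library, and the 4 lower ran from 3 to 6. Over all genes the 1285 higher in RNA became 1610 with DESeq2 and 1795 with all-transcript factors. They became 1408 with the replicate block and 1970 with the library set. For footprints per RNA the 1 higher became 2 with DESeq2, 0 with limma, 5 with the library set, 2 over coding transcripts and 0 to 3 without 1 library, and none was lower in any. The 18 higher over all genes became 155 with DESeq2, 2 with limma, 249 with the library set and 37 over coding transcripts. Of the 257 ORFs of the deposited lists, 59 had a p-value under 0.001. The replicate block left the members' counts in footprints (2 higher, 0 lower) and footprints per RNA (1 higher, 0 lower) as they were. The library set, coding-transcript and length-trend alternatives were chosen after seeing the data; where a count moved, the cause was not tested. Depth ran from 3030290 to 33203742 counts per library.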
